A study of Rattus norvegicus with 8 samples.

Results

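The insulin-like growth factor (IGF) family described here is 10 genes: the ligands Igf1 and Igf2, the receptors Igf1r and Igf2r, and the binding proteins Igfbp2 to Igfbp7. They were taken by symbol, as every probe set whose only platform symbol is 1 of these names. Each gene had exactly 1 probe set, so the family is 10 of 29214 probe sets and 10 of the 14506 genes with a symbol. Adult male Wistar rats were compared 14 days after transection of the L5 spinal nerve, and the tissue was dorsal lumbar cord from the injured side. The HDACI group received MS-275, which selectively inhibits class I histone deacetylases, from an intrathecal osmotic pump at 30 nmol/d. The vehicle group received the solvent, dimethyl sulfoxide in saline, by the same route. In the study's pretreatment experiments infusion began days before the injury and continued after it. Its account of the arrays does not restate this timing. There were 4 biological replicates per group, each on its own Affymetrix Rat Gene 1.0 ST array. Every animal was nerve-injured, so the comparison is drug against solvent within injured cord, and no uninjured cord enters it. All values are log2 signals after RMA, in which 1 unit is a doubling.

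Insulin-like growth factors are secreted proteins that promote cell growth, survival and myelination, and Igf1 released by microglia and Igf2 released by the meninges and vessels are known sources in the central nervous system. Igf1r is the tyrosine kinase receptor through which both ligands signal, and Igf2r is a clearance receptor that takes Igf2 to lysosomes. The binding proteins hold the ligands in extracellular fluid, lengthen their lifetime and can either block or deliver them to the receptor.

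The upstream sequences of 4 binding proteins are shown because Igfbp7 is the member whose groups did not overlap, Igfbp2 is the member that varied together with Igf2, and Igfbp5 and Igfbp6 are the members that varied most between arrays. They come from RefSeq on the rat assembly GRCr8, run 5′ to 3′ on the gene's strand and end just before the annotated start of the gene. Capitals mark GC boxes, the letters GGGCGG on either strand (read as CCGCCC on the other), a motif bound by Sp1-type factors. Igfbp7 lies on chr14:31091486-31091680 (plus strand), Igfbp2 on chr9:81864561-81864810 (plus strand), Igfbp5 on chr9:81914188-81914437 (minus strand) and Igfbp6 on chr7:135154669-135154918 (plus strand).
Igfbp7: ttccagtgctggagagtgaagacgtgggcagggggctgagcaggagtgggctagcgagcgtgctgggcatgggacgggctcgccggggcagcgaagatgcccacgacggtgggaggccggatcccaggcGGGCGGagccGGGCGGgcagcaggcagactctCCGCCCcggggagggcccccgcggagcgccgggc
Igfbp2: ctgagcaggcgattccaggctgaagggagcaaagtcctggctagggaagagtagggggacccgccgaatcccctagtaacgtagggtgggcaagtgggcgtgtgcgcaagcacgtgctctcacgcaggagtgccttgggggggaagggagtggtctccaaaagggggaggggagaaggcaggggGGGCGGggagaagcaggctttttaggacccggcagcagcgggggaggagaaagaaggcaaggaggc
Igfbp5: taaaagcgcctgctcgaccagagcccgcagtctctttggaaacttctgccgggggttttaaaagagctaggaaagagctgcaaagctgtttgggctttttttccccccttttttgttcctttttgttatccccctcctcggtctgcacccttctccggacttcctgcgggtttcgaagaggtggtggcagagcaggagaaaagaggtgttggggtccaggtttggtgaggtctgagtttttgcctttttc
Igfbp6: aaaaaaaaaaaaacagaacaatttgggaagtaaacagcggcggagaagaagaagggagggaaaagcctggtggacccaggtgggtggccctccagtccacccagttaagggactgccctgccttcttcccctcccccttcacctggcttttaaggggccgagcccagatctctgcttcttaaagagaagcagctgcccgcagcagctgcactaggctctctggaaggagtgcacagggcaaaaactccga

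RefSeq windows of 300 bases, from 250 before to 50 after each transcription start, were found for all 10 members, with 2 starts for Igf2. Of 33469 such windows over all genes, 33.1% held at least 1 GC box and 4.64% held 4 or more. The Igfbp7 window held 4 GC boxes and 32 CpG sites, against a median of 7 CpG sites over all windows. The printed Igfbp7 stretch of 195 bases ends before the window does. It holds 3 of these boxes, and the other runs across its end. Igf2r held 2 boxes, Igf1r, Igfbp2 and both Igf2 windows held 1 each, and Igf1, Igfbp3, Igfbp4, Igfbp5 and Igfbp6 held 0. Igfbp4 was the member whose window held TATAAA, a motif found in 14.2% of all windows when both strands were read. Igfbp2 and Igfbp5 are neighbours on chromosome 9 with 0 protein-coding genes between them. A match of letters describes the window and is no evidence that a factor binds it.

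Most of the family stood slightly higher on HDACI arrays, and no member passed adjustment. The estimated difference was above 0 for 9 of the 10 members, with a median of 0.23 log2 units, whereas it was above 0 for 42.1% of all genes, with a median of -0.014. At an unadjusted p under 0.01, a threshold the study also used and called very permissive, 1 member was called, Igfbp7, beside 1.46% of all genes (212 of 14506). At an unadjusted p under 0.05, 3 members were higher, Igf1, Igfbp2 and Igfbp7, beside 7.75% of all genes in either direction. With limma and Benjamini-Hochberg adjustment 0 members and 0% of genes had an adjusted p under 0.05, and the smallest adjusted p over all genes was 0.6096. This adjustment ran over genes with a symbol. At an adjusted p under 0.05 the study itself reported 1 gene in cord, a mitochondrial transfer RNA. Igfbp7 was also the 1 member with every HDACI array above every vehicle array, a pattern that 1.42% of genes showed. Fitted on the probe sets, with 1.3% of 29214 probe sets at an unadjusted p under 0.01, it was again the 1 member called. These 10 genes share arrays and partly vary together, so their common direction is not 10 separate results. Without HDACI replicate 2 the estimates of Igf1r, Igf2r, Igfbp3, Igfbp4 and Igfbp5 were 0.002, 0.005, 0.013, 0.028 and 0.078.

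**Figure D1:**
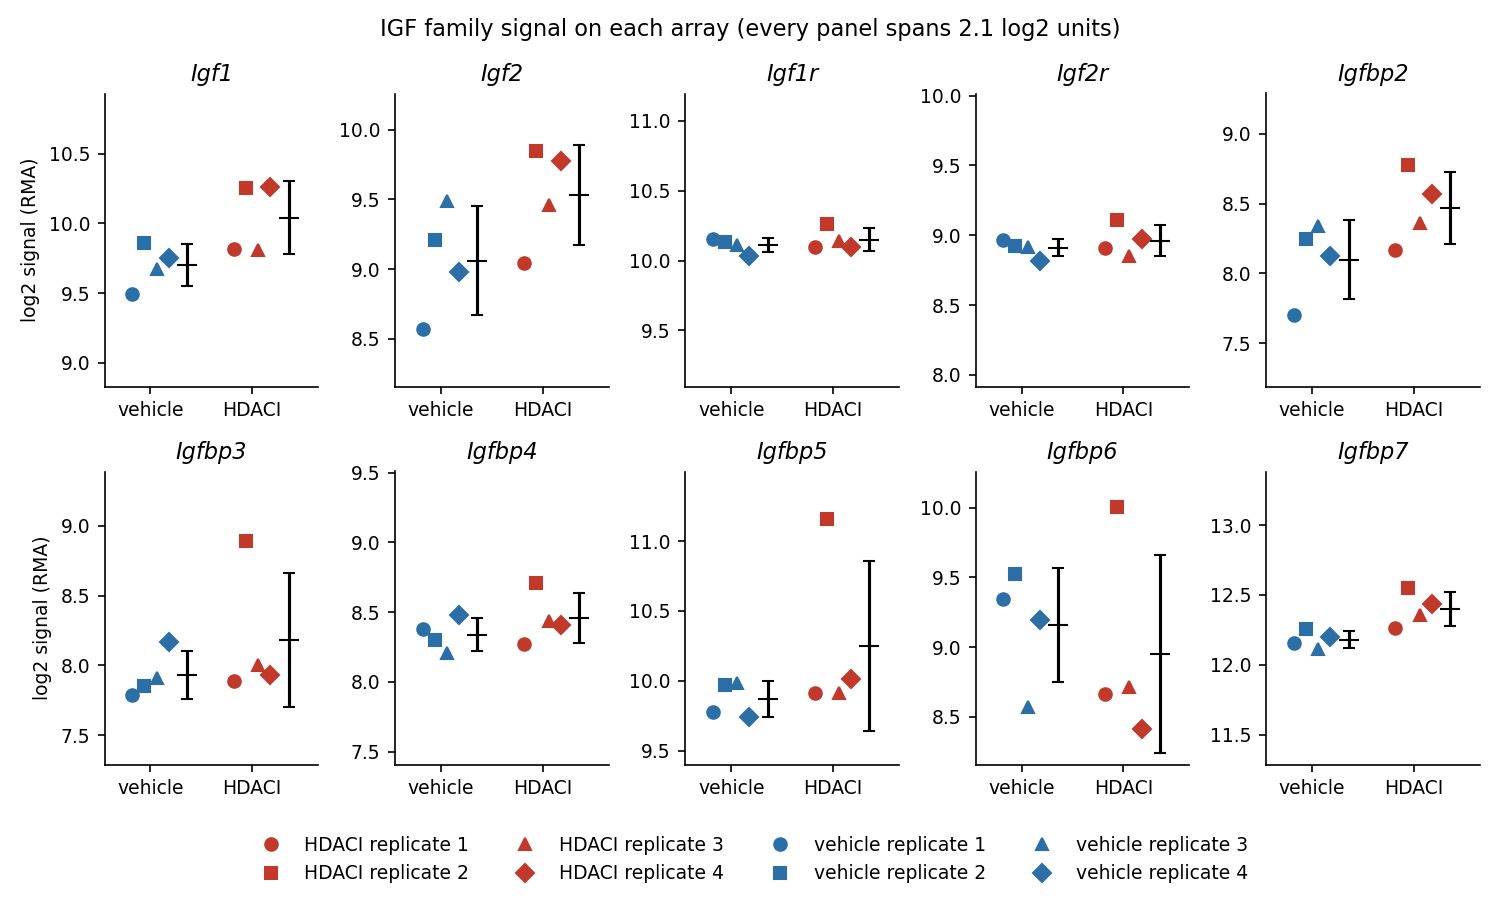
Log2 RMA signal of each IGF family member (vertical axis, every panel spans the same range) on the 4 vehicle and 4 HDACI arrays, with marker shapes for replicate numbers and bars for the mean ± SD of each group. HDACI replicate 2 stands far above the other arrays for Igfbp3, Igfbp5 and Igfbp6, and Igfbp7 is the panel in which the groups do not overlap.

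HDACI replicate 2 had the highest signal of the 8 arrays for 9 of the 10 members, all but Igf1, while it was the highest array for 16.1% of all genes. Array medians lay between 7.95 and 7.98, which the quantile normalization sets close together, and correlations between arrays lay between 0.9928 and 0.9972. Its markers of leptomeningeal fibroblasts, the cells of the inner meninges, averaged 9.44 over 12 measured genes, against 8.44 to 8.95 on the other 7 arrays. The mean of 8 neuronal markers was lowest on the same array, 11.16 against 11.31 to 11.50 elsewhere. In a bulk sample, fewer cells of a type and less RNA per cell cannot be told apart. Results that rest on this array are therefore given with and without it. All 10 members averaged above 6.94, the 95th percentile of 53 olfactory receptor genes, which cord is not known to express and whose median was 5.15.

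The ligand Igf1, the main IGF made after birth and a survival factor for neurons and glia, had signals of 9.82, 10.25, 9.81 and 10.26 on HDACI replicates 1 to 4 and of 9.50, 9.86, 9.67 and 9.75 on vehicle replicates 1 to 4. HDACI replicates 2 and 4 stood above all vehicle arrays, and the groups overlapped through vehicle replicate 2 alone, which exceeded HDACI replicates 1 and 3. Group means were 10.04 ± 0.26 (HDACI) and 9.70 ± 0.15 (vehicle; SD, n = 4 each). The difference was 0.34 (SE 0.125, 95% interval 0.059 to 0.62), or 1.27-fold, with an unadjusted limma p of 0.02278 and an adjusted p of 0.6262. The exact permutation test over arrays gave p = 0.08571. The difference was 0.27 without HDACI replicate 2 (unadjusted limma p of 0.06484).

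Igf2, the fetal growth factor that stays expressed in adult meninges and choroid plexus, had signals of 9.05, 9.84, 9.46 and 9.77 on HDACI replicates 1 to 4 and of 8.57, 9.21, 9.49 and 8.98 on vehicle replicates 1 to 4. HDACI replicates 2 and 4 were again the highest and vehicle replicate 1 the lowest, while HDACI replicates 1 and 3 lay within the vehicle range. The means, 9.53 ± 0.36 and 9.06 ± 0.39 (SD, n = 4 each), differed by 0.47, the widest estimate in the family. The SE was 0.215 and the 95% interval, -0.014 to 0.95, included 0. The unadjusted limma p was 0.05576, the adjusted p 0.6457 and the exact permutation p 0.1429. Leaving out 1 array at a time moved the estimate between 0.31 (without vehicle replicate 1) and 0.63 (without HDACI replicate 1), and it was 0.37 without HDACI replicate 2.

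At both receptors the difference between the groups was smaller than the spread between arrays. Igf1r, the signalling receptor, read 10.09, 10.26, 10.14 and 10.10 on HDACI arrays and 10.16, 10.13, 10.11 and 10.03 on vehicle arrays. The ranges overlapped almost fully, with HDACI replicate 2 highest and vehicle replicate 4 lowest. The difference of 0.039 (SE 0.051) had a 95% interval of -0.074 to 0.153 and an exact permutation p of 0.5429. Igf2r, the clearance receptor for Igf2, read 8.91, 9.11, 8.85 and 8.97 on HDACI arrays and 8.97, 8.92, 8.92 and 8.82 on vehicle arrays. Here too the groups overlapped, with the same arrays highest and lowest. Its difference was 0.055 (SE 0.062, 95% interval -0.083 to 0.193), with an exact permutation p of 0.4857. The differences were 0.002 for Igf1r and 0.005 for Igf2r without HDACI replicate 2. The SD within groups was 0.066 for Igf1r, at the 30.3rd percentile of all genes, and 0.091 for Igf2r, at the 53.7th, with a median of 0.087 over all genes. Neither interval reached beyond 0.193 log2 units in either direction.

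The binding proteins spread over a wide range of steadiness. Igfbp6, Igfbp5, Igfbp3 and Igfbp2 had SDs within groups of 0.584, 0.438, 0.356 and 0.274, which placed them at the 99.6th, 99.3rd, 98.9th and 97.8th percentiles of all genes. Igfbp4 lay at the 87.6th percentile and Igfbp7 at the 58.5th. The ligand Igf2 was as variable (0.375, 99th percentile), and Igf1 lay at the 95.4th percentile. A difference of a given size was therefore measured far less sharply at Igfbp6 than at Igfbp7.

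Igfbp7, a secreted protein of vessel walls and matrix that binds IGFs weakly, read 12.26, 12.55, 12.35 and 12.43 on HDACI replicates 1 to 4 and 12.16, 12.25, 12.12 and 12.20 on vehicle replicates 1 to 4. Every HDACI array stood above every vehicle array, and the closest pair was HDACI replicate 1 and vehicle replicate 2. The means were 12.40 ± 0.12 and 12.18 ± 0.06 (SD, n = 4 each). The difference was 0.22 (SE 0.064, 95% interval 0.075 to 0.364), or 1.16-fold, with an unadjusted limma p of 0.007333 and an adjusted p of 0.6096. The exact permutation p was 0.02857, which is the smallest that 4 arrays against 4 can give. The estimate stayed between 0.17 and 0.27 under 16 other settings, yet its unadjusted p exceeded 0.01 under 7 of them. Without HDACI replicate 2 it was 0.17 (unadjusted limma p of 0.01608). Igfbp7 is among the genes the study listed from these arrays, so its place there is not independent evidence.

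Beside Igfbp7, few vascular markers passed a test. Of 8 pericyte and smooth muscle markers, 7 had an estimate above 0, and their mean was 9.48 to 9.85 on HDACI arrays against 9.38 to 9.50 on vehicle arrays (exact permutation p = 0.05714). Des, the muscle filament desmin, was the 1 marker of this list at an unadjusted p under 0.01 or 0.05, 0.67 higher (SE 0.109, adjusted p = 0.6096) with no overlap between groups. Of 8 endothelial markers, 7 had an estimate above 0 and 0 reached an unadjusted p under 0.05 in limma, and their mean ran from 9.04 to 9.38 on HDACI and from 9.10 to 9.18 on vehicle arrays (exact permutation p = 0.4). Igfbp7 followed the pericyte and smooth muscle mean over the 8 arrays with r = 0.859 and rho = 0.714 (exact permutation p = 0.0068 and 0.0576, adjusted p = 0.139 and 0.302 over 110 pairs), and r was 0.642 without HDACI replicates 2 and 3. This relation was not particular to Igfbp7. With the same mean r was 0.840 for Igfbp2, 0.794 for Igf2, 0.856 for Igfbp3 and 0.855 for Igfbp5. Each had an adjusted exact permutation p of 0.139. Without HDACI replicate 2 these values were 0.739, 0.758, 0.419 and 0.421, and r was 0.681 for Igfbp7. The lowest r of the family was 0.292, for Igfbp6. With the endothelial mean Igfbp7 gave r = 0.803 and rho = 0.571 (exact permutation p = 0.0148 and 0.151, adjusted p = 0.139 and 0.475). That r was 0.529 without HDACI replicate 2. With group means removed, r of Igfbp7 was 0.862 with the endothelial and 0.711 with the pericyte and smooth muscle mean. The part of these cells in the differences of the members was not tested.

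Igfbp2, a major carrier of Igf2 in cerebrospinal fluid, read 8.17, 8.78, 8.36 and 8.57 on HDACI replicates 1 to 4 and 7.70, 8.25, 8.34 and 8.13 on vehicle replicates 1 to 4. HDACI replicates 2, 3 and 4 stood above all vehicle arrays, HDACI replicate 1 lay among them, and vehicle replicate 1 was lowest by a clear margin. The means were 8.47 ± 0.26 and 8.10 ± 0.28 (SD, n = 4 each). The difference of 0.37 (SE 0.159, 95% interval 0.011 to 0.725), or 1.29-fold, had an unadjusted limma p of 0.04456 and an adjusted p of 0.6401. The exact permutation p was 0.1143. Leaving out 1 array at a time gave 0.23 (without vehicle replicate 1) to 0.47 (without HDACI replicate 1), and 0.27 without HDACI replicate 2.

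Igfbp3, the main IGF carrier of blood plasma, read 7.89, 8.89, 8.003 and 7.93 on HDACI arrays and 7.79, 7.85, 7.91 and 8.17 on vehicle arrays. Igfbp5, a carrier that binds matrix and is made by several cell types of cord and vessel, read 9.91, 11.16, 9.91 and 10.01 on HDACI arrays and 9.78, 9.97, 9.98 and 9.74 on vehicle arrays. In both genes HDACI replicate 2 alone was far above the rest, and the other HDACI arrays lay close to or within the vehicle range. The difference for Igfbp3 was 0.25 (SE 0.204, exact permutation p = 0.4571) and fell to 0.013 without that array. For Igfbp5 it was 0.38 (SE 0.25, exact permutation p = 0.2286) and fell to 0.078 without that array (unadjusted limma p of 0.3101). These differences rested on 1 animal sample.

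Igfbp4, generally an inhibitor of IGF action, read 8.27, 8.71, 8.43 and 8.41 on HDACI arrays and 8.38, 8.30, 8.20 and 8.48 on vehicle arrays. Only HDACI replicate 2 exceeded the vehicle range. The difference was 0.113 (SE 0.094, 95% interval -0.098 to 0.325, exact permutation p = 0.4), and it was 0.028 without that array.

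Igfbp6, the binding protein with a marked preference for Igf2, was the member with an estimate below 0. It read 8.66, 10.003, 8.71 and 8.41 on HDACI replicates 1 to 4 and 9.34, 9.53, 8.57 and 9.19 on vehicle replicates 1 to 4. The highest array of all was an HDACI array, replicate 2, while the other 3 HDACI arrays lay near the lowest vehicle array, replicate 3, and below the other vehicle arrays. The means, 8.95 ± 0.71 and 9.16 ± 0.41 (SD, n = 4 each), differed by -0.21 (SE 0.332, 95% interval -0.957 to 0.538, exact permutation p = 0.6). Without HDACI replicate 2 the difference was -0.56 (95% interval -1.02 to -0.098, unadjusted limma p of 0.0232, adjusted p = 0.7796), and without HDACI replicate 4 it was -0.031. The size of the estimate was thus set by which animal samples were included.

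**Figure D2:**
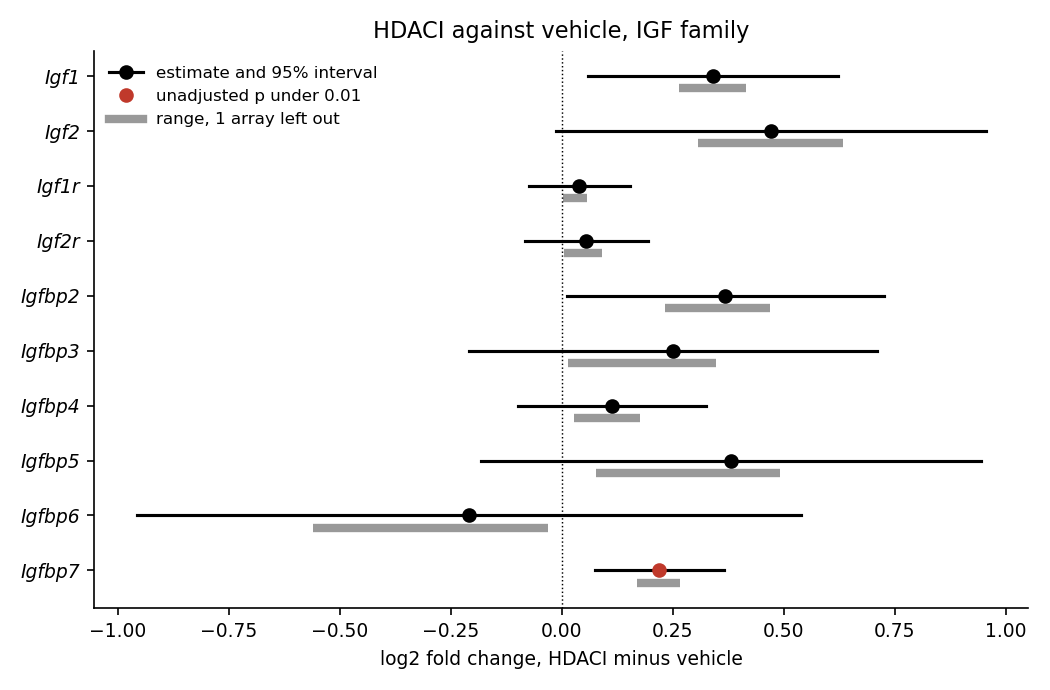
Difference between HDACI and vehicle for each member in log2 units (horizontal axis; black points and lines are the limma estimate and its 95% interval, grey bars the range when 1 array at a time is left out, red marks an unadjusted p under 0.01). The intervals are narrow for Igf1r, Igf2r and Igfbp7 and wide for Igfbp5 and Igfbp6, and the grey bars of Igf1r, Igf2r, Igfbp3, Igfbp4, Igfbp5 and Igfbp6 come within 0.1 of 0.

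Igf2 and Igfbp2 varied together from array to array. Over the 8 arrays r was 0.975 and rho 0.976 (exact permutation p = 4.96e-05 and 0.000397, adjusted p = 0.00223 and 0.0179 over the 45 pairs of members). The relation was as close with group means removed (r = 0.962), without HDACI replicate 2 (0.975) and without the arrays farthest from the median, HDACI replicate 2 and vehicle replicate 1 (0.984). Vehicle replicate 1 was lowest for both genes and HDACI replicates 2 and 4 were highest for both. The differences of Igf2 and Igfbp2 between HDACI and vehicle are therefore not separate results.

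**Figure D3:**
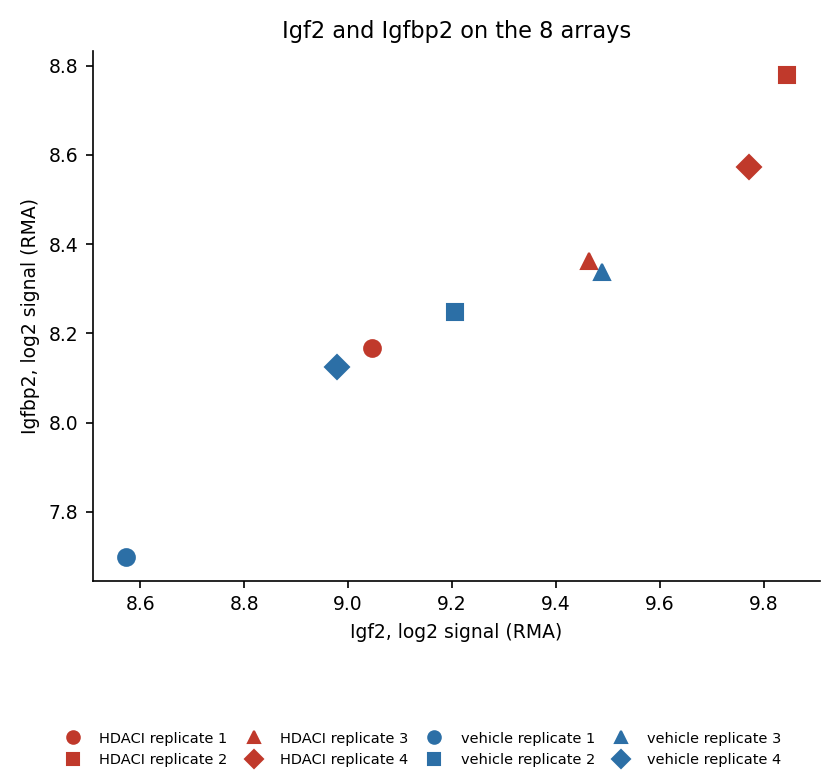
Log2 RMA signal of Igf2 (horizontal axis) and Igfbp2 (vertical axis), 1 point per array, with colour for group and shape for replicate number. The 8 points lie near a line on which HDACI and vehicle arrays are interleaved in the middle, with vehicle replicate 1 at the low end and HDACI replicates 2 and 4 at the high end.

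Igf1 with Igfbp7 was the 1 further pair of members with an adjusted p under 0.05 for r (0.906, exact permutation p = 0.00218, adjusted p = 0.0491). Its rho of 0.857 did not pass (adjusted p = 0.121), and r fell to 0.686 without HDACI replicates 2 and 4, the arrays farthest from the median. Igf2 with Igfbp5 passed for rho instead (0.952, exact permutation p = 0.00114, adjusted p = 0.0257) and not for r (0.653, adjusted p = 0.2), and r was 0.821 without HDACI replicate 2 and 0.746 without that array and vehicle replicate 1. Igfbp3 with Igfbp5 had r = 0.904 but rho = 0.310 (adjusted p = 0.212 and 0.717), and r was -0.339 without HDACI replicate 2. That relation rested on 1 array.

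Igfbp6 tended to vary with the markers of Schwann cells and leptomeningeal fibroblasts. Of 4 markers of Schwann cells, the myelin cells of nerve roots, Pmp2 and Prx were measured, and their mean was 8.02, 11.02, 9.78 and 7.81 on HDACI replicates 1 to 4 and 10.66, 10.39, 7.65 and 8.81 on vehicle replicates 1 to 4. This mean ranged over more than 3 log2 units within either group, and the group means differed by less than that spread (exact permutation p = 0.7714). With Igfbp6 it gave r = 0.864 and rho = 0.929 (exact permutation p = 0.0117 and 0.00223, adjusted p = 0.139 and 0.123 over 110 pairs of members and marker lists). Without HDACI replicate 2 and vehicle replicate 3, r was 0.791. The leptomeningeal mean, 8.44 to 9.44 on HDACI and 8.49 to 8.95 on vehicle arrays, gave r = 0.861 with Igfbp6 (rho = 0.833, adjusted p = 0.139 and 0.242) and r = 0.492 without HDACI replicate 2 and vehicle replicate 2. Without HDACI replicate 2 alone, r was 0.819 with the Schwann and 0.724 with the leptomeningeal mean. These lists were not the only ones with such values. The neuronal mean gave r = -0.784 with Igfbp6 (adjusted exact permutation p = 0.139), and -0.522 without HDACI replicate 2. The mean of motor neuron markers gave r = 0.588 (adjusted exact permutation p = 0.265), and 0.909 without that array. None of these relations passed adjustment, and the part of these cells in the Igfbp6 values was not tested.

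Single markers were then compared with Igf2, Igfbp2, Igfbp5 and Igfbp6, in 56 pairs chosen after the values were seen. Aldh1a2, which makes retinoic acid in the meninges, read 8.01, 9.05, 8.18 and 8.48 on HDACI arrays and 7.48, 8.35, 8.21 and 8.04 on vehicle arrays. Its order over the arrays was close to that of Igfbp2 (r = 0.962, rho = 0.881, exact permutation p = 0.000967 and 0.00724, adjusted p = 0.0392 and 0.0676). It gave r = 0.899 with Igf2 (adjusted p = 0.0392; rho = 0.905, adjusted p = 0.0639) and 0.837 with Igfbp5 (adjusted p = 0.0392; rho = 0.905, adjusted p = 0.0639). Without HDACI replicate 2 and vehicle replicate 1 these 3 values of r were 0.837, 0.795 and 0.737. Aldh1a2 was the 1 of 12 leptomeningeal markers with an adjusted p under 0.05 for Igf2 or Igfbp2. For the other markers r ran from -0.103 (Dcn) to 0.772 (Slc6a13) with Igf2 and from -0.027 (Dcn) to 0.871 (Slc6a13) with Igfbp2. With Igfbp5 it ran from -0.079 (Foxd1) to 0.933 (Slc47a1), and the latter was -0.600 without HDACI replicate 2. The mean of all 12 gave r = 0.398 with Igf2 (rho = 0.214, exact permutation p = 0.341 and 0.619, adjusted p = 0.483 and 0.783) and r = 0.495 with Igfbp2 (rho = 0.310, exact permutation p = 0.217 and 0.462, adjusted p = 0.398 and 0.696). These values of r were -0.122 and -0.118 without HDACI replicate 2, and without vehicle replicate 2 as well -0.170 and -0.241. Igfbp6 followed the matrix genes Dcn (r = 0.899, adjusted p = 0.0392; rho = 0.881, adjusted p = 0.0676; 0.838 without HDACI replicate 2 and vehicle replicate 2) and Col3a1 (r = 0.854, adjusted p = 0.0436; rho = 0.857, adjusted p = 0.0857; 0.790 without HDACI replicates 1 and 2). For the other leptomeningeal markers r with Igfbp6 ran from -0.416 (Foxd1) to 0.869 (Lum). It was 0.310 for Aldh1a2 and 0.418 for Slc6a13, and -0.431 and -0.136 without HDACI replicate 2. Markers of the choroid plexus, another known source of Igf2, averaged above the olfactory receptor level for 1 of 5 genes, Kl. Single arrays exceeded that level for others: Kcnj13 (7.72) and Clic6 (7.02) on HDACI replicate 2, Ttr on HDACI replicate 4 (7.21) and vehicle replicate 4 (7.30), and Folr1 on vehicle replicate 3 (7.08). The choroid plexus mean was highest on HDACI replicate 2 (7.14). It gave r = 0.700 with Igfbp2 (rho = 0.571, exact permutation p = 0.0538 and 0.151, adjusted p = 0.19 and 0.475) and r = 0.864 with Igfbp3 (rho = 0.810, exact permutation p = 0.00313 and 0.0218, adjusted p = 0.139 and 0.299). Without HDACI replicate 2 alone, r was 0.461 with Igfbp2 and 0.793 with Igfbp3. Leaving out vehicle replicate 4 as well gave 0.854 and 0.475. The tissue was dorsal lumbar cord, and which cells gave the signal of these markers was not tested.

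**Figure D4:**
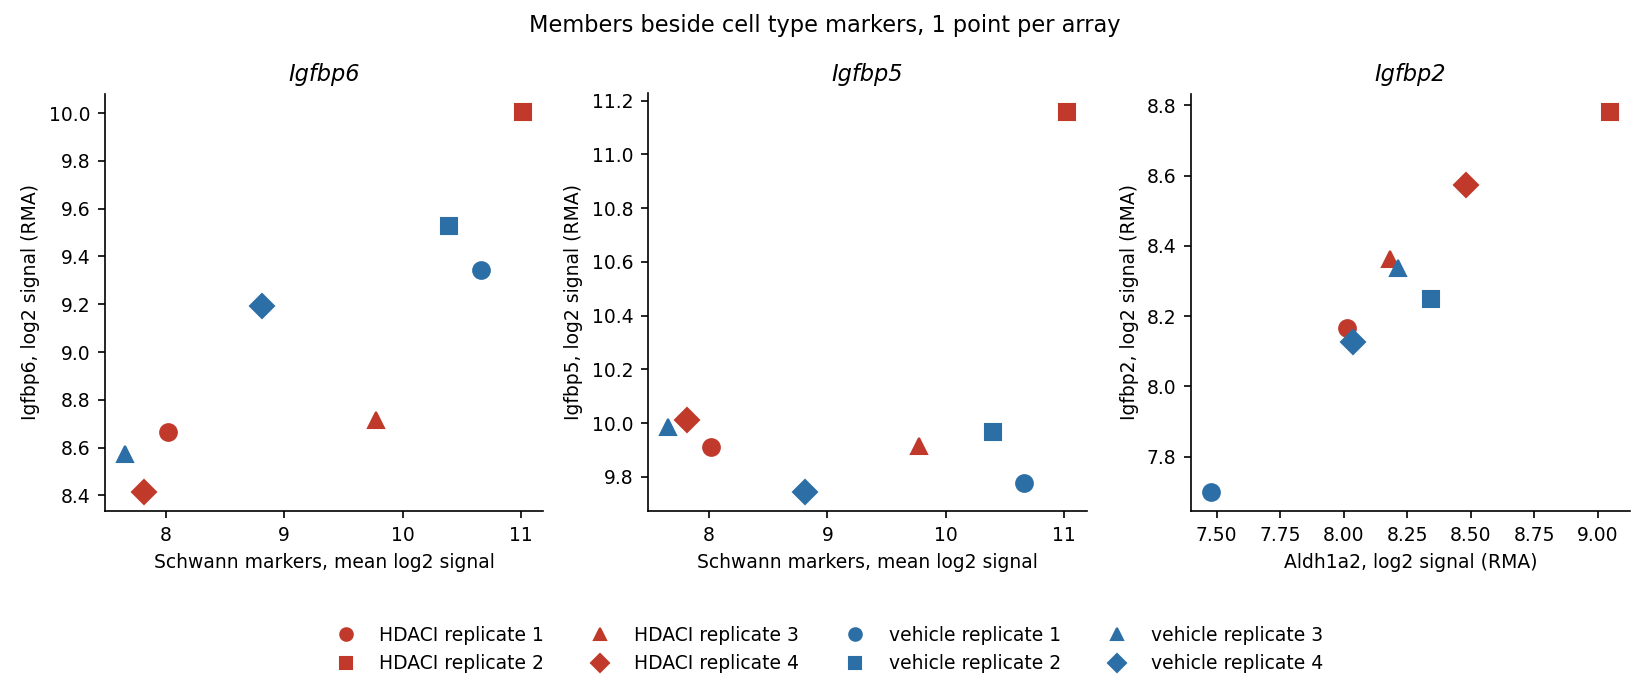
Log2 RMA signal of Igfbp6 and Igfbp5 against the mean of the Schwann markers Pmp2 and Prx, and of Igfbp2 against the leptomeningeal marker Aldh1a2, 1 point per array. Igfbp6 rises with the Schwann mean (r = 0.864), Igfbp5 is flat apart from HDACI replicate 2, and Igfbp2 rises with Aldh1a2 (r = 0.962).

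Igf1, which microglia produce after nerve injury, was set beside 9 microglial markers. Their mean was 10.19 to 10.46 on HDACI and 10.03 to 10.46 on vehicle arrays (exact permutation p = 0.4286). Of the 9, 8 had an estimate above 0 and 0 reached an unadjusted p under 0.05 in limma. Igf1 gave r = 0.374 with this mean (rho = 0.429, adjusted exact permutation p = 0.483 and 0.598). With the mean of 3 perivascular macrophage markers it gave r = 0.733 (rho = 0.786, adjusted exact permutation p = 0.164 and 0.302). Without HDACI replicate 2 these values of r were 0.147 and 0.675. Group means of the astrocyte and oligodendrocyte markers differed by less than the spread between arrays, with exact permutation p = 0.2571 and 0.7714. Motor neuron markers, which belong to ventral cord, were 7.86 to 8.59 on HDACI and 8.32 to 9.64 on vehicle arrays (exact permutation p = 0.1429). Of the 3 measured, 2 (Slc5a7 and Isl1) were lower at an unadjusted limma p under 0.05, beside 7.75% of all genes in either direction. The remaining marker, Prph, differed by -0.93 (SE 0.483, unadjusted limma p of 0.0839). Isl1 averaged 6.81 and 7.04, about the olfactory receptor level of 6.94, and Slc5a7 8.83 and 9.57.

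Genes elsewhere in the pathway lay on both sides of 0. Of 40 listed genes outside the family, 33 were measured. In limma 0 of them reached an unadjusted p under 0.01, and 14 lay above and 19 below 0 with a median of -0.007. At an unadjusted p under 0.05 there were 4 of 33, beside 7.75% of all genes, of which 2 were higher and 2 lower, and their adjusted p values were 0.6262 to 0.6401. Ghr, the growth hormone receptor that drives Igf1 production, was 0.25 higher (SE 0.105), with 8.19, 8.53, 8.30 and 8.40 on HDACI arrays and 8.07, 8.38, 8.06 and 7.90 on vehicle arrays. Its groups overlapped through vehicle replicate 2, as those of Igf1 did.

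Below the receptor, 8 of 21 measured signalling genes lay above and 13 below 0. Foxo1, the transcription factor that IGF signalling keeps out of the nucleus, was 0.28 higher (SE 0.102, unadjusted limma p of 0.02382). Its signals were 9.39, 9.67, 9.50 and 9.46 on HDACI arrays and 9.29, 9.42, 9.27 and 8.93 on vehicle arrays, so that HDACI replicate 1 and vehicle replicate 2 overlapped. Rps6kb1, the kinase S6K1 at the end of the mTOR branch, was 0.11 lower (SE 0.040, unadjusted limma p of 0.02216). It read 9.36 to 9.43 on HDACI and 9.46 to 9.56 on vehicle arrays, with no overlap. Every HDACI array lay below every vehicle array for 522 of 14506 genes. Tsc2 also had no overlap, with 10.54 to 10.56 on HDACI and 10.58 to 10.66 on vehicle arrays (unadjusted limma p of 0.1461). Rheb, the GTPase that activates mTOR, was 0.11 lower (SE 0.047, unadjusted limma p of 0.04221), with 10.80 to 10.88 on HDACI and 10.87 to 11.02 on vehicle arrays. None of the 4 pathway genes at an unadjusted p under 0.05 passed adjustment.

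Among 7 measured carriers, proteases and protease inhibitors the smallest p belonged to Pappa, the protease that frees IGFs from Igfbp4, at -0.26 (SE 0.146, unadjusted limma p of 0.1026). Its values were 7.35, 7.77, 7.39 and 7.20 on HDACI arrays and 7.72, 8.04, 7.52 and 7.48 on vehicle arrays, and the groups overlapped. Igfals, which forms the large plasma complex with Igfbp3, and Stc1, an inhibitor of Pappa, differed by -0.062 and 0.058. Igfbp1, the remaining classical binding protein, averaged 6.87 and 6.84, under the olfactory receptor level in both groups. The insulin receptor Insr and its relative Insrr differed by 0.028 and 0.042. H19, the imprinted RNA next to Igf2, differed by -0.097 (unadjusted limma p of 0.1777) and Igf2bp1, which binds Igf2 mRNA, by -0.00061.

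**Figure D5:**
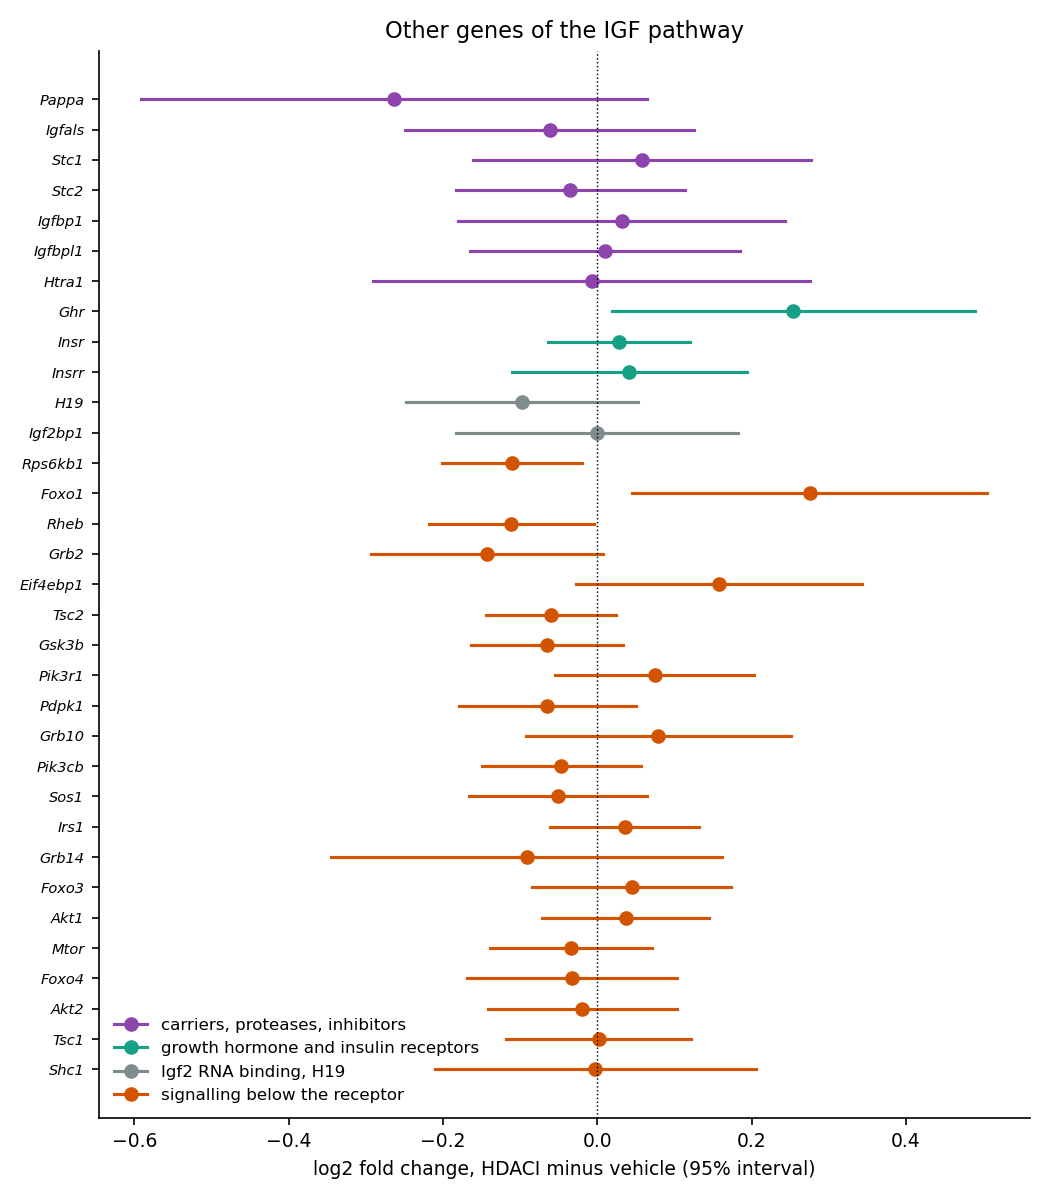
Difference between HDACI and vehicle in log2 units with its 95% interval (horizontal axis) for the 33 measured pathway genes outside the family, coloured by role and ordered within a role by p. The intervals of Ghr and Foxo1 lie above 0, those of Rps6kb1 and Rheb below 0, and those of all other genes drawn include 0.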

How the data were processed

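Affymetrix Rat Gene 1.0 ST arrays measured RNA of dorsal ipsilateral lumbar cord, 4 HDACI and 4 vehicle, and the labels gave groups and replicate numbers. The values deposited are log2 signals: per the methods and the submitters' processing notes, the authors background-corrected, quantile-normalized and summarised the scans by RMA in the R package oligo, with Ensembl v70 annotation through biomaRt. Versions of these packages: not given in the sources used here. Quantile normalization gives arrays a common distribution, so a shift shared by most genes would not be seen, and the number of arrays limits the precision.

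In the platform annotation 1 symbol was given for 15310 probe sets and several for 323, which stayed unnamed, while 13581 were not listed. A RefSeq table of GRCr8 held 15279 of the symbols. Probe sets of 1 symbol were averaged, which gave 14506 genes. HDACI and vehicle were compared in limma 3.58.1 (lmFit, then eBayes; R 4.3.3) without a filter, block or weights, with two-sided p values and Benjamini-Hochberg adjustment over all genes (6 residual and 3.36 prior degrees of freedom). Two-sided exact permutation tests over arrays were added for single values, where 0.0286 is the smallest p possible for 4 against 4. Correlations over the 8 arrays used all 40320 orders. The scripts were tested on simulated data.

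The members, pathway lists and marker lists were chosen with earlier results of these data known. The genes named are all members, the genes of each pathway list with an unadjusted p under 0.01 or among its 3 smallest, and the marker genes with an unadjusted p under 0.01. Others were named after their values were seen. Alternatives were trend and robust variances, no moderation, a signal filter, further quantile or median scaling, array weights, the replicate block, the brightest probe set and each array left out. Scans, dorsal root ganglion arrays, protein and behaviour data were not analysed here.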

Additional observations from a re-analysis of the deposited data

Results flagged for a closer look

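Among the members, 2 groups of arrays held 1 array far from the other 3, and both times it was HDACI replicate 2. Igfbp3 read 8.89 on that array with the next HDACI array at 8.003, a gap that was 0.888 of the group's range. Igfbp5 read 11.16 there with the next HDACI array at 10.01, a gap of 0.92 of the range. The mean of the perivascular macrophage markers was 7.20 on vehicle replicate 1 with the next vehicle array at 7.79, a gap of 0.866 of the range, and that array also had the lowest Igf1, Igf2 and Igfbp2. These 3 were found among 42 groups examined, 20 of them groups of the members, and chance alone flags about 1 in 20 groups.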

How the results depend on the processing

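The main counts at an unadjusted p under 0.01 were 1 member, 1 member probe set and 0 pathway genes. Without moderation of the variances they were 0, 0 and 1, and a further quantile normalization gave 0 member probe sets. Leaving out 1 array at a time gave 0 to 1 members, 0 to 1 member probe sets and 0 to 2 pathway genes. Igfbp7 was not called without HDACI replicate 2, 3 or 4, without vehicle replicate 1, 3 or 4, or without moderation. Over 16 settings 9 of 10 members lay above 0 whenever all were tested, no member reversed, and Igfbp2, Igfbp3 and Igfbp4 were not tested above the median signal. The cause of these changes was not tested. Without HDACI replicate 2 the differences of Igf1r, Igf2r, Igfbp3, Igfbp4, Igfbp5 and Igfbp6 changed by over 1.5 times. Those of Igf1r and Igf2r were then 0.002 and 0.005, hardly above 0.

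The replicate numbers are shared by the groups, but same-numbered arrays correlated by -0.27, 0.36, 0.04 and 0.06 in their deviations from the group means, so nothing shows that a number pairs samples. With the replicate block, 4 members (Igf1, Igf2, Igfbp2 and Igfbp7), 4 member probe sets and 3 pathway genes had an unadjusted p under 0.01. Over all genes 187 of 14506 did so, and 0 had an adjusted p under 0.05.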

Other observations

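Of the 110 pairs of members and marker lists, 1 had an adjusted p under 0.05 for r. Igf2r followed the mean of 5 oligodendrocyte markers with r = 0.906 and rho = 0.952 (exact permutation p = 0.000446 and 0.00114, adjusted p = 0.0491 and 0.123). Without HDACI replicate 2 and vehicle replicate 4, r was 0.863. Neither Igf2r nor that mean differed between the groups beyond its spread between arrays.

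The genes most like a member were sought among 14496 others, by r over the 8 arrays after group means were removed, and such high values arise easily in a search of this width. Igf1 was closest to Dicer1 (0.977), Gmds (0.972) and Ccdc50 (0.965). Igf2 was closest to Mafg (0.963), Prrx1 (0.959) and Prl7d1 (0.958). Igfbp7 was closest to Etfdh (0.986), Bms1 (0.985) and Atf5 (0.982).

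Kl, a choroid plexus marker that encodes the ageing-related protein klotho, was 0.20 higher on HDACI arrays (SE 0.049, unadjusted limma p of 0.002753, adjusted p = 0.6096). Its signals were 7.62, 7.52, 7.58 and 7.64 on HDACI arrays and 7.38, 7.38, 7.50 and 7.32 on vehicle arrays, with no overlap. The other 4 choroid plexus markers averaged under the olfactory receptor level.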
